A study of Mus musculus with 6 samples.

Results

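The genes examined encode the nuclear parts of the mitochondrial respiratory chain, in lineage-depleted bone marrow of Dek -/- mice. They were chosen by name: every row of the count table whose symbol starts with Ndufa, Ndufb, Ndufc, Ndufs or Ndufv, with Sdh followed by a, b, c or d, with Uqcr, with Cox4 to Cox8, or with Atp5. Of 24421 genes in the table, 96 rows matched, and 90 reached 10 or more counts in at least 3 libraries and are the members described here. Sorted by the complex each protein belongs to, 43 members were of complex I, 8 of complex II, 8 of complex III, 16 of complex IV and 15 of complex V. The name rule also takes in proteins that are not structural parts: 76 members are subunits, and 14 are assembly factors or other proteins. Ndufa4, a subunit of complex IV despite its name, was counted there, and Atp5sl, an assembly factor of complex I, was counted with complex I.

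All samples came from Dek -/- mice of the C57BL/6 strain. Marrow was flushed from the femur, cells that carry lineage markers were removed on columns, and the remaining cells were given either vehicle (3 libraries) or exogenous DEK (3 libraries) before RNA was isolated. DEK is a chromatin protein that cells can also release, and every library here, vehicle included, lacks the gene's intact copies according to the labels. The dose, the length of treatment, the source of the DEK protein and the age and number of mice are not given in the sources used here, so p-values measure the spread between these samples, which may be partly technical. Both groups have replicate numbers 1 to 3.

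The respiratory chain passes electrons from NADH (complex I) and succinate (complex II) through ubiquinone to complex III, cytochrome c and complex IV, which reduces oxygen. Complexes I, III and IV pump protons as they do so, and complex V, the ATP synthase, uses the proton gradient to make ATP. Most subunits are encoded in the nucleus and imported, and a few core subunits are encoded in mitochondrial DNA and are not part of this gene group. In bone marrow, quiescent stem cells are known to lean on glycolysis, and progenitors that divide or differentiate rely more on respiration.

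Many promoters of this gene group carry binding motifs of NRF1, of ETS factors such as GABP, and of YY1, 3 kinds of regulator long tied to respiratory chain genes. The promoters of 76 of the 90 members, 82 in all, were found in RefSeq (GRCm38.p6), as 300 bases around the start of transcription. On either strand, the NRF1 motif (GCGC, then A and any base, then GCGC) occurred in 24.4% of the members' promoters and in 4.60% of all 32851 promoters of the same length. The ETS motif CCGGAAG occurred in 24.4% against 8.86%. The YY1 motif AAGATGGCG occurred in 9 of the 82 against 1.40% of all. The set of all promoters was not matched to the members for base content or for expression in these cells. In no member's promoter did matches of different motifs overlap, and a match is a string of letters, not a measured binding site. The windows below run from 120 bases before the start to 30 bases from it, 5′ to 3′ on the gene's strand, with motif matches in capitals. They are examples of promoters with several matches: repeated NRF1 motifs (Sdha), NRF1 with ETS (Sdhd, Cox6a1, Atp5k) and YY1 with ETS (Atp5j). Other arrangements occur too, such as NRF1 with YY1 (Ndufs6) and repeated ETS motifs (Ndufs3, Cox8a). Ndufaf7 is shown because it is the member with the clearest difference between the groups, and its window has none of these letters.
Sdha: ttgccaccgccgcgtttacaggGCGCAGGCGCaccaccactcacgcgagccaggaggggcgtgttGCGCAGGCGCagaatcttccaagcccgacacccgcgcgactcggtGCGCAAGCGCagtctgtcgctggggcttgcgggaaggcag
Sdhd: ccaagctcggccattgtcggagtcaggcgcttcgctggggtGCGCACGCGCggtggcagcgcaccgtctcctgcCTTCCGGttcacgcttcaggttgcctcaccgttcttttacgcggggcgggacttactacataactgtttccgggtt
Cox6a1: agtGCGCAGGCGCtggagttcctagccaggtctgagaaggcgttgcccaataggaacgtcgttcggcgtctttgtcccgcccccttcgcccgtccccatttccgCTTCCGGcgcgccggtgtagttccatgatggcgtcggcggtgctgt
Atp5k: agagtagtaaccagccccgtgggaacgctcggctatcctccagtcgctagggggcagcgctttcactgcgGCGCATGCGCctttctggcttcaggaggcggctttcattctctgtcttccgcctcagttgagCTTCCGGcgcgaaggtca
Atp5j: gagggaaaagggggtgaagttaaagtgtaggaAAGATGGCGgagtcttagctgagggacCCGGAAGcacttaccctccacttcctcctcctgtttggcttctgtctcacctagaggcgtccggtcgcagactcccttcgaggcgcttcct
Ndufaf7: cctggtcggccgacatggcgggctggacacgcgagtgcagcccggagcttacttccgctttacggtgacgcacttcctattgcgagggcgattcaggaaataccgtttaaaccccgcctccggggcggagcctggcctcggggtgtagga
The windows lie at chr13:74350211-74350360 (minus strand), chr9:50603820-50603969 (minus strand), chr5:115348929-115349078 (minus strand), chr5:108434370-108434519 (minus strand), chr16:84834947-84835096 (minus strand) and chr17:78937015-78937164 (plus strand). Capitals that read as the reverse complement (CTTCCGG) are matches on the other strand.

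Read totals ran from 34875736 to 49128378 counts per library, and the members together took about 1 in 100 of them. Progenitor markers were present: all 10 of the list (Kit, Cd34, Flt3 and others) passed the filter on low counts, and they took 0.0580% to 0.127% of counts. Dek itself was read in all 6 libraries (672 to 869 counts), and since the deleted part of the gene is not given, its counts check nothing about the deletion. Libraries with the number 3 differed from the rest, in vehicle and DEK alike: neutrophil markers (10 of 11 listed in the table) took 6.44% of counts in vehicle 3 and 5.73% in DEK 3, against 0.627% to 0.849% in the other 4. The ribosomal RNA gene Rn45s took 4.89% of counts in vehicle 1 and at most 0.331% elsewhere.

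The share of all counts taken by the 90 members was 0.901%, 1.00% and 0.794% in vehicle libraries 1, 2 and 3, and 0.995%, 1.06% and 0.758% in the DEK libraries of the same numbers. The groups overlapped, and the libraries numbered 3 were the lowest of each. Vehicle averaged 0.899% ± 0.105 (SD, n = 3) and DEK 0.938% ± 0.158 (SD, n = 3), a gap smaller than either spread. The Wilson binomial 95% interval of each share, which covers counting error only, was at most 0.00317 percentage points to either side, so depth did not limit these values. Each complex repeated the pattern: complex V held the largest share (0.319% ± 0.0422 and 0.338% ± 0.0621, SD, n = 3 each), followed by complex I, complex IV, complex III and complex II. For all 5 complexes the share was higher with DEK in the pairs numbered 1 and 2 and lower in the pair numbered 3. These are shares of unscaled totals. The scaling factors used for the fold changes (TMM) were 0.964 in vehicle 3 and 0.899 in DEK 3. After that scaling, the median log2 difference over members in pair 3 was -0.028 for complex I and -0.048 for V. It was 0.090 for II, 0.0039 for III and 0.030 for IV. A fall of every complex in pair 3 was thus seen only in unscaled totals. In pair 1 the unscaled totals also differed in Rn45s, which took 4.89% of counts in vehicle 1 and 0.159% in DEK 1. After the scaling, the medians of pair 1 were 0.12 for complex I, 0.0040 for II, 0.024 for III, 0.21 for IV and 0.14 for V. The part of Rn45s in the shares of pair 1 was not tested. RNA from bulk marrow cannot tell fewer cells of a type from less RNA per cell.

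**Figure D1:**
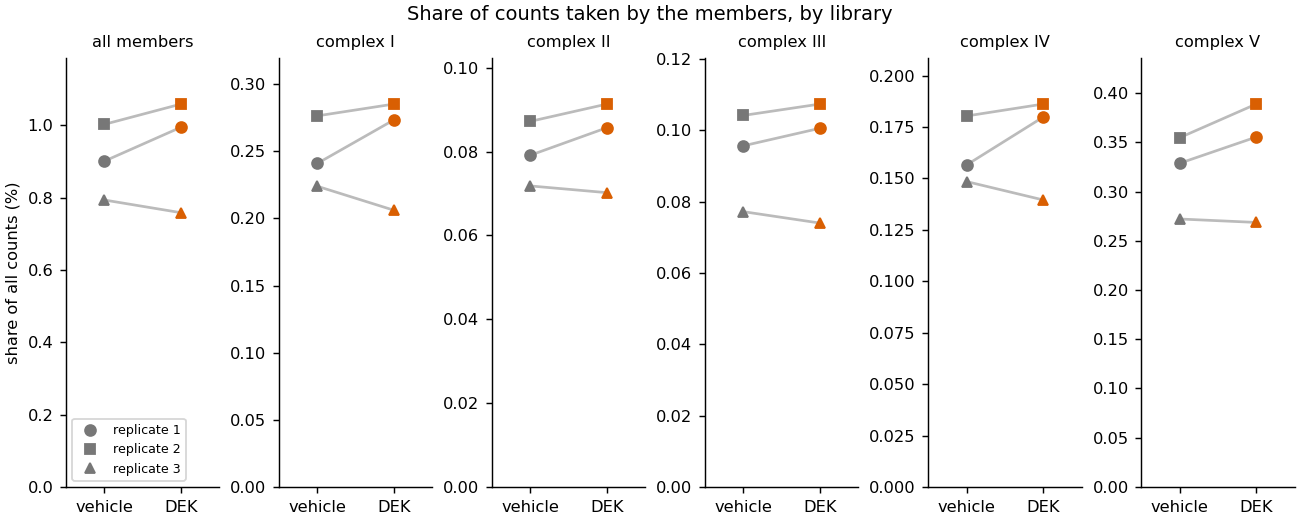
Share of all counts taken by the members and by each complex (y axis, percent, starting at 0) in vehicle (grey) and DEK (orange) libraries, 1 symbol per replicate number, with lines joining equal numbers. In every panel the libraries numbered 3 are the lowest of their group, and the lines of numbers 1 and 2 go up while that of number 3 goes down. The shares are of unscaled totals, which include Rn45s (4.89% of counts in vehicle 1).

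For single genes, all 90 members were among the 13803 genes tested with edgeR's quasi-likelihood test without a replicate block, and 0 of 90 passed an adjusted p of 0.05, as did 0% of all genes tested. At an unadjusted p under 0.05 there was 1 member (1.11%), against 2.61% of all genes. DESeq2 called 0 members and 0.42% of all genes, and limma-voom called 0 members and 0% of all genes. With the replicate number as a block, 1 of 90 was called and was higher with DEK (Ndufaf7, 1.11% of members), against 1.28% of all genes in either direction, 0.869% higher and 0.413% lower. The share called was thus close to that of all genes in that fit. At an unadjusted p under 0.05 it held 5 of 90 members, against 1581 of 13803 genes. The 95% interval lay wholly above 0 for 4 of these members and wholly below 0 for 1. Most values were small: 85 of 90 had a log2 fold change (DEK against vehicle) within 0.25 of 0, which is 94.4% of members against 73.5% of all genes. The 95% interval lay within 0.5 of 0 on the log2 scale (1.41-fold) for 60 of 90 members without the block and for 79 of 90 with it, against 29.4% and 59.5% of all genes. Differences smaller than these intervals are not distinguishable from 0 with 3 libraries a group. The members' standard errors (SE) were also smaller, with a median of 0.149 against 0.216 over all genes without the block. The shares near 0 were not matched for SE or level.

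The members sat slightly above 0 as a group. Their median log2 fold change was 0.049 without the block and 0.054 with it, beside 0.0018 and -0.0028 over all genes tested. Of the 90, 61 were above 0 and 29 below. Within pairs of equal number (differences of log2 CPM, CPM being counts scaled to library size, with a prior count of 2), the members' median was 0.11 in pair 1, 0.078 in pair 2 and -0.013 in pair 3, so the direction was not shared by all 3 pairs. The 8 proliferation markers (Mki67, Top2a and others) had pair medians of 0.40 and 0.27, with 8 of 8 above 0 in each, and of -0.26 in pair 3, with 0 of 8 above 0. Their part in the members' values was not tested. DEK higher in all 3 pairs was seen for 25 members (27.8%) and DEK lower in all 3 for 2 (2.22%), beside 16.3% and 17.9% of all genes. Members measured in the same libraries are not independent of each other. The median rested on 1 library: without DEK replicate 2 it was -0.0033, and without DEK replicate 3 it was 0.098. The 76 subunits had a median of 0.055 and the 14 assembly factors and other proteins one of -0.034. By complex the medians were 0.054 for I, 0.020 for II, 0.075 for III, 0.053 for IV and 0.031 for V.

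**Figure D2:**
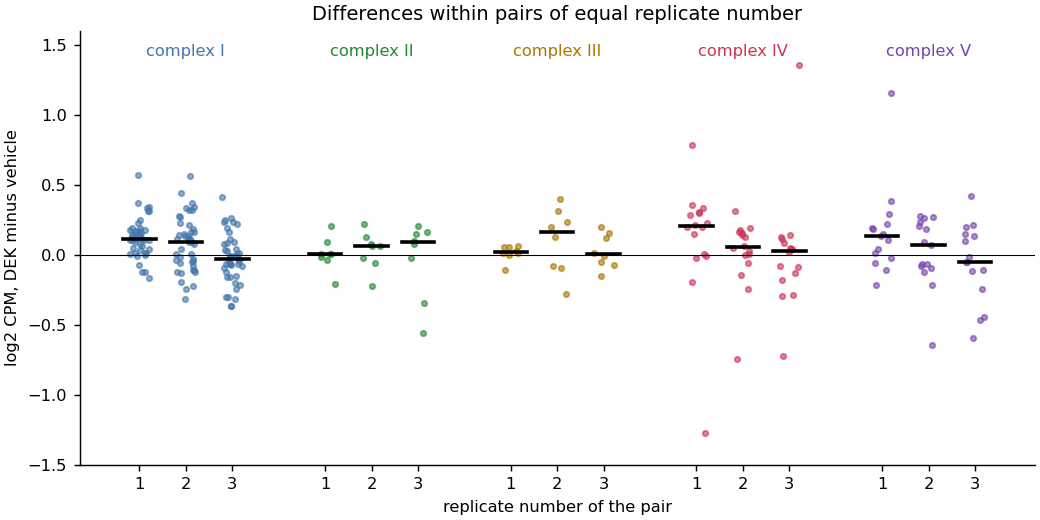
Difference of log2 CPM, DEK minus vehicle, for each member (points) in each pair of equal replicate number (x axis), by complex, with the median as a bar. The medians of pair 3 lie below those of pair 1 in complexes I, III, IV and V, and above in complex II.

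The groups did not overlap in CPM for 5 members, all higher with DEK (5.56%), against 3.78% of all genes higher, 3.41% lower and 7.19% in either direction. These were Ndufb3, Sdhb, Cox5a, Cox6a1 and Cox4i2, of which Cox4i2 passed the filter on low counts only through the DEK libraries, so its separation followed from the filter. No member was lower with DEK without overlap. None of the 5 passed the adjusted test in either fit, and Cox5a is named because it is on this list.

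**Figure D3:**
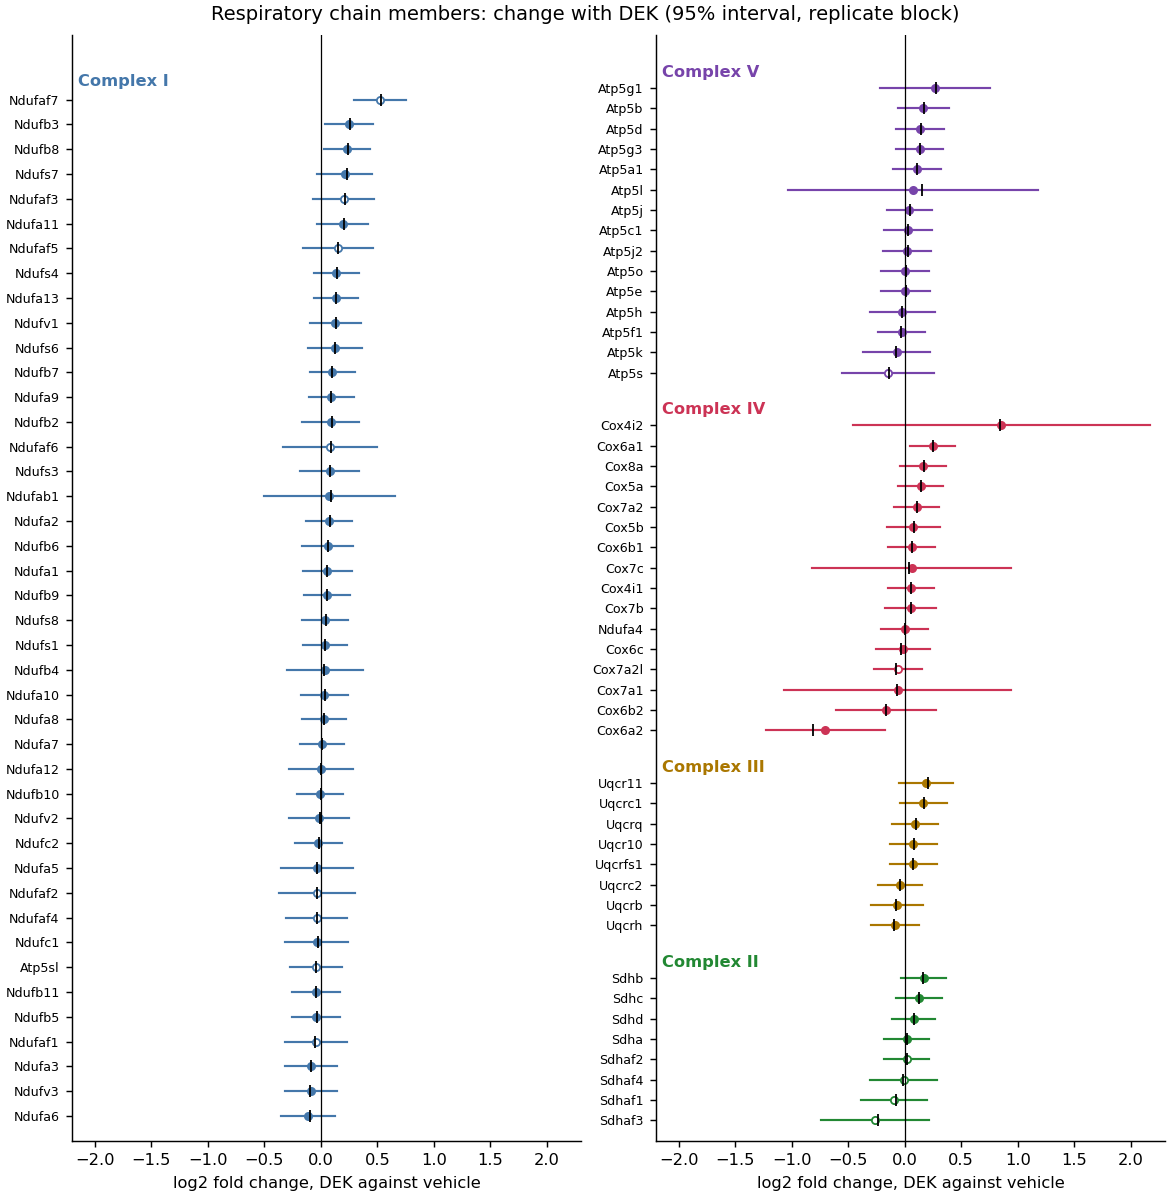
Log2 fold change of 89 of the 90 members (x axis, DEK against vehicle) by complex, with the 95% interval from the fit with the replicate block. Filled points are subunits, open points assembly factors and other proteins, and black ticks are the values without the block. Nearly all points lie within 0.25 of 0. Ndufaf7 and Cox6a2 lie farther out with intervals off 0, and Cox4i2, with a few counts, has the widest interval. Closer in, the members with intervals above 0 include Ndufb3 and Cox6a1. The intervals are not adjusted for the number of genes.

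Complex I (NADH dehydrogenase) takes electrons from NADH and is the largest complex, built with the help of many assembly factors. Of its members, 35 are subunits and 8 are assembly factors, 29 had a log2 fold change above 0 and 14 below, and 1 was called with the block. The most abundant per length was Ndufa3, an accessory subunit, at a level of 259.7 CPM per kb of exon (mean of 6 libraries). No core subunit that binds NADH or holds iron-sulphur clusters passed the adjusted test in either fit. Ndufv1, where NADH binds, had a log2 fold change of 0.13 ± 0.19 (SE) and Ndufs1, the largest iron-sulphur subunit, one of 0.035 ± 0.11 (SE). The highest of this core was Ndufs7, an iron-sulphur subunit, with 0.23 ± 0.16 (SE). These genes are given as examples of the core, chosen after their values were seen.

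Ndufaf7, an arginine methyltransferase that acts in assembly, was the member that changed with the block. It lies on chr17:78937135-78948052, plus strand, on mm10. Its level was 29.0, 30.8 and 21.9 CPM in vehicle libraries 1, 2 and 3, and 43.1, 45.7 and 29.2 CPM in the DEK libraries. The groups overlapped, because DEK 3 lay below vehicle 2, and within each pair the DEK library was higher, by 0.57, 0.57 and 0.42 on the log2 scale. Without the block its log2 fold change was 0.53 ± 0.22 (SE, adjusted p = 1.00, edgeR). With the block it was 0.52 ± 0.11 (SE, adjusted p = 0.0339, edgeR), a 1.43-fold rise with a 95% interval of 0.29 to 0.75. With the block but without the pair numbered 1, 2 or 3, the adjusted p was 0.136, 0.658 and 0.00128 in turn (edgeR). The share of all genes called in these smaller fits is not given here. The other complex I assembly factors of the Ndufaf series ran from -0.049 (Ndufaf1) to 0.22 (Ndufaf3).

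The values of neighbouring genes are given beside it. Prkd3, a protein kinase gene on the opposite strand, ends 1353 bases beyond the end of Ndufaf7, with no shared exon in the table. Prkd3 stood at 192.9, 186.5 and 154.5 CPM in vehicle and at 263.7, 273.2 and 172.0 CPM in DEK libraries, with a log2 fold change of 0.39 ± 0.10 with the block (SE, adjusted p = 0.103, edgeR). Cebpz, which starts 65 bases from Ndufaf7 on the other strand, had one of 0.081 ± 0.099 (SE). The counting did not use strand, so reads that run past the end of Prkd3 into Ndufaf7 would be counted for Ndufaf7, and their part in the difference was not tested.

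Ndufb3, an accessory subunit of the membrane arm, stood at 46.2, 52.4 and 49.9 CPM in vehicle and at 58.7, 65.5 and 52.9 CPM in DEK libraries. All DEK values lay above all vehicle values, and the log2 fold change was 0.25 ± 0.12 (SE, adjusted p = 1.00, edgeR; 0.329 with the block). At the other end, Ndufa6 had -0.099 ± 0.18 (SE) and Ndufv3 -0.098 ± 0.15 (SE). Both reversed when single libraries were left out, so they give no direction.

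**Figure D4:**
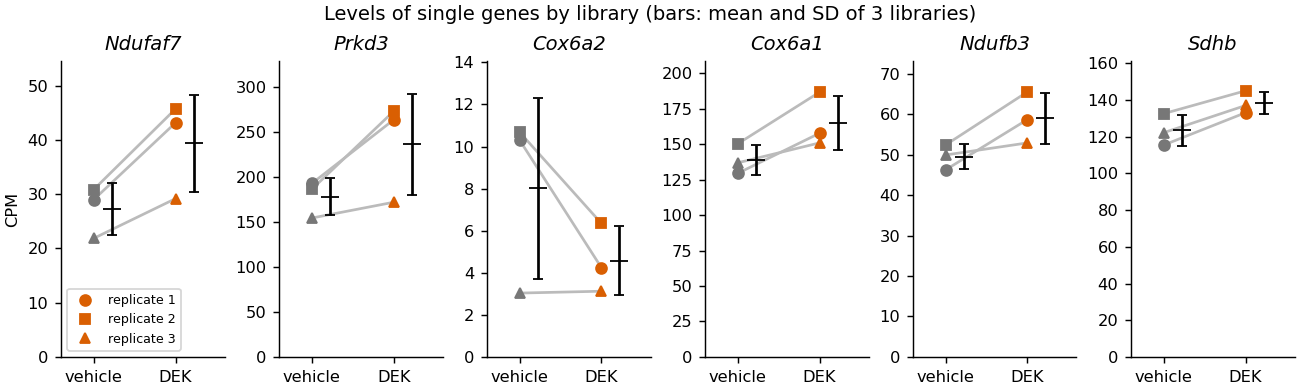
CPM (y axis, starting at 0) of Ndufaf7, its neighbour Prkd3, Cox6a2, Cox6a1, Ndufb3 and Sdhb in each library, with lines joining equal replicate numbers and bars giving the mean and SD of 3 libraries. Ndufaf7 and Prkd3 go up in all 3 pairs, Cox6a2 goes down in pairs 1 and 2, and in the last 3 panels all DEK libraries lie above all vehicle libraries.

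Complex II (succinate dehydrogenase) links the respiratory chain to the tricarboxylic acid cycle. It is the 1 complex with all subunits encoded in the nucleus, and its 4 subunits were all measured. Sdhb, the iron-sulphur subunit, stood at 115.5, 132.6 and 122.3 CPM in vehicle and at 133.1, 145.1 and 137.1 CPM in DEK libraries. The DEK libraries lay above the vehicle ones, narrowly between DEK 1 and vehicle 2, and the log2 fold change was 0.17 ± 0.11 (SE, adjusted p = 1.00, edgeR). The membrane anchor Sdhc had 0.13 ± 0.13 (SE), the other anchor Sdhd, the most abundant per length at 151.2 CPM per kb, had 0.078 ± 0.10 (SE), and Sdha, the flavoprotein, had 0.022 ± 0.14 (SE). All 4 subunits thus had values above 0, with a median of 0.10, and none passed the test. The assembly factors Sdhaf3 and Sdhaf1 were at the low end, with -0.23 ± 0.37 and -0.081 ± 0.18 (SE). Sdhaf3 was low in counts, at under 4 CPM in every library.

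Complex III (cytochrome bc1) hands electrons from ubiquinol to cytochrome c. All 8 members are subunits, 5 with log2 fold changes above 0 and 3 below. The hinge protein Uqcrh was the most abundant per length, at 326.1 CPM per kb, and was also the lowest in change (-0.093 ± 0.14, SE). Uqcr11, a small subunit, was the highest (0.20 ± 0.16, SE), followed by the core protein Uqcrc1 (0.17 ± 0.16, SE). Uqcrc1 stood at 183.7, 194.3 and 159.2 CPM in vehicle and at 191.2, 241.3 and 173.4 CPM in DEK libraries, so the groups overlapped and DEK 2 was the highest. Uqcrb, also known as the ubiquinone-binding protein, had -0.074 ± 0.12 (SE). The complex's median was -0.029 without DEK replicate 2.

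Complex IV (cytochrome c oxidase) has subunits that exist as tissue isoforms, and in this marrow the widespread ones were the abundant ones. Cox4i1 had a level of 483.9 CPM per kb, the highest of the complex, and its counterpart Cox4i2, best known from lung, 0.309 CPM per kb. Cox6a1 had 285.1 CPM per kb and the heart and skeletal muscle isoform Cox6a2 had 9.54. Cox6b1 had 382.8 and the testis isoform Cox6b2 had 19.0 CPM per kb. Cox7a2 had 147.9 and the muscle isoform Cox7a1 had 1.07 CPM per kb. Cox8a had 286.3 CPM per kb, while Cox8b had 1 count in 1 library and Cox8c had 0 counts, and Cox7b had 122.4 CPM per kb while the testis isoform Cox7b2 had 0 counts. Ndufa4 had 273.2 CPM per kb and its paralog Ndufa4l2, known as a target of hypoxia signalling, 0.106.

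None of the widespread isoforms passed the adjusted test between the groups. Cox6a1 came nearest, with 129.4, 150.2 and 136.8 CPM in vehicle and 157.7, 186.6 and 150.9 CPM in DEK libraries. All DEK values were above all vehicle values, by a margin of under 1 CPM between DEK 3 and vehicle 2, and the log2 fold change was 0.25 ± 0.13 (SE, adjusted p = 1.00, edgeR; 0.293 with the block). Cox5a, the other member of the complex without overlap at a level above 100 CPM, had 0.14 ± 0.11 (SE). Cox4i1 had 0.055 ± 0.16, Cox6b1 0.063 ± 0.11, Cox7a2 0.11 ± 0.14, Cox7b 0.051 ± 0.12 and Cox8a 0.17 ± 0.13 (SE for each). Cox4i2, just inside the count filter, had 8, 9 and 3 counts in vehicle and 14, 13 and 13 in DEK libraries, too few to read a fold from.

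Cox6a2 had the lowest log2 fold change of all members. It lies on chr7:128205435-128206366, minus strand, on mm10. It stood at 10.3, 10.7 and 3.04 CPM in vehicle and at 4.24, 6.35 and 3.12 CPM in DEK libraries, so the 2 vehicle libraries numbered 1 and 2 were high, those numbered 3 were low in both groups, and the groups overlapped. The log2 fold change was -0.81 ± 0.51 (SE, adjusted p = 1.00, edgeR) and -0.70 ± 0.23 with the block (SE, adjusted p = 0.261, edgeR). Within pairs it was -1.27, -0.75 and 0.041. With the block and without the pair numbered 3 it was -1.01 (adjusted p = 1.81e-05, edgeR), so the call turned on the libraries numbered 3. That fit used only 4 libraries. The share of all genes called in it is not given here, so this p-value cannot be set against the other genes. Cox6a1 was 21.4 times as abundant as Cox6a2 per length in vehicle and 44.6 times in DEK libraries. A list of 10 skeletal muscle genes, made after these values were seen, took 0.000962% to 0.00161% of counts in vehicle and 0.000727% to 0.00138% in DEK libraries, highest in the libraries numbered 3, where Cox6a2 was lowest. Of the 10, 5 passed the filter on low counts, with Tnni2 at 3.25 to 6.20 CPM, while the fibre genes Myh4 and Myl1 had 0 counts in all libraries and Ckm at most 0.298 CPM. The part of muscle RNA in the Cox6a2 values was not tested. Of its exon bases 10.5% overlap Itgad on the opposite strand, whose level was at most 0.774 CPM.

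Cox6a2 is also a known marker of mouse plasmacytoid dendritic cells. A list of 8 genes of these cells, Cox6a2 among them and made after its values were seen, took 0.0157% to 0.0363% of counts in vehicle and 0.0158% to 0.0326% in DEK libraries, lowest in the libraries numbered 3. Its lectin gene Siglech stood at 61.6, 62.4 and 30.2 CPM in vehicle and at 53.7, 50.1 and 36.8 CPM in DEK libraries, and the chemokine receptor gene Ccr9 at 29.0, 36.0 and 17.0 against 19.5, 18.3 and 15.6 CPM. Without the block, 2 of the 8 had a log2 fold change above 0 and 6 below (median -0.12). In pair 3, 4 of the 8 were above 0. None of the 8 was called in either fit. The part of these cells in the Cox6a2 values was not tested.

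Complex V (ATP synthase) was the most abundant part of the chain in RNA. The catalytic beta subunit gene Atp5b had the highest level per length of all members, 512.1 CPM per kb. It stood at 963.0, 955.8 and 800.0 CPM in vehicle and at 973.8, 1161 and 920.0 CPM in DEK libraries. The groups overlapped, DEK 2 was the highest, and the log2 fold change was 0.17 ± 0.15 (SE, adjusted p = 1.00, edgeR). Of the 15 members 11 had values above 0 and 4 below. The highest was Atp5g1 (0.28 ± 0.25, SE), at only 2.01 to 2.90 CPM, and the lowest were the coupling factor gene Atp5s (-0.14 ± 0.21, SE) and Atp5k, the membrane subunit e (-0.080 ± 0.15, SE). Both of the lowest were above 0 without the pair numbered 3. Atp5j shares 13.6% of its exon bases with Gabpa on the opposite strand, so the counts of both are uncertain there.

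The c ring, which turns as protons pass, is encoded by 3 genes for the same mature protein. Of these, Atp5g3 carried nearly all the counts: 287.2 CPM per kb, against 2.79 for Atp5g1 and 0.262 for Atp5g2, which had 4 to 16 counts and fell just outside the filter. Atp5g3 had a log2 fold change of 0.14 ± 0.12 (SE).

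Those levels went with sequence copies elsewhere in the genome. For each member, the coding sequence (GENCODE M21, mm10) was cut into all stretches of 50 bases, and each was looked for in transcripts of genes at other places. Of the 90 members, 57 shared no such stretch, and 5 shared over 80%: Atp5l and Ndufb4 (100%), Ndufab1 (99.8%), Atp5g1 (99.7%) and Cox7c (81.9%), mostly with processed pseudogenes. These 5 had levels of 0.969 to 15.6 CPM per kb (median 2.04), and the 71 other subunits had a median of 103.6. Outside the filter, Atp5g2 shared 100% and Ndufs5 72.5%. Ndufs5 had 0 counts in every library, and 95.1% of its exon bases also lie in BC002163, a gene entry on the same strand of chromosome 4. The counting had no option for reads that align to several places or lie in exons of several genes. The low levels of these 7 genes are therefore uncertain, and so are the fold changes of the 5 members. The bound of 80% was set after the values were seen. Below it, genes such as Uqcrb (72.9%) and Atp5h (67.1%) had 63.6 and 100.1 CPM per kb, and low levels without shared stretches occurred for tissue isoforms such as Cox7a1 and Cox4i2.

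**Figure D5:**
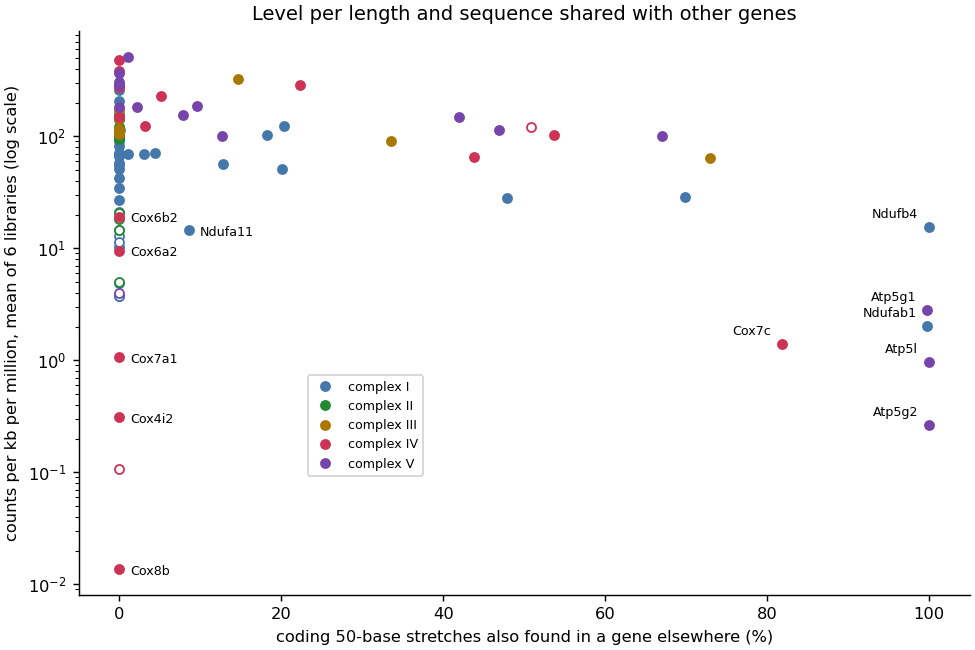
Level per exon length (y axis, log scale, mean of 6 libraries) against the percent of 50-base coding stretches found at other genes (x axis), for all name-matched genes with a count. Filled points are subunits, open points assembly factors and other proteins. The 6 genes above 80% lie at 15.6 CPM per kb or lower, and the other low subunits are tissue isoforms at 0%, apart from Ndufa11.

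The libraries numbered 3 were lower for most members. Relative to the mean of libraries 1 and 2 of the same group, 56 of 90 members were below in vehicle 3 (median -0.067 on the log2 scale) and 74 of 90 in DEK 3 (median -0.20). These are the libraries with the high neutrophil marker share, and other marker lists set them apart as well. Erythroid markers took 0.215% and 0.371% of counts in vehicle 3 and DEK 3, against 0.0728% to 0.102% in the other 4. Progenitor markers took 0.0659% and 0.0580% against 0.103% to 0.127%, and eosinophil markers 0.398% and 0.267% against 0.775% to 1.34%. The part of cell makeup in the members' lower levels was not tested. Without both, the members' median log2 fold change was 0.093.

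Members with and without a motif in the promoter are set side by side. The median log2 fold change was 0.025 for the 19 members with an NRF1 motif and 0.051 for the 57 without. It was 0.054 and 0.033 for the ETS motif (20 and 56 members), and 0.065 and 0.035 for YY1 (8 and 68). No test was run on these medians. The regulators themselves were measured: Nrf1 had a log2 fold change of 0.037 ± 0.10, Gabpa -0.12 ± 0.14 and Yy1 -0.019 ± 0.12 (SE for each).

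No gene of the lists around the chain passed the test. Of 20 carriers and further subunits, such as cytochrome c and the enzymes of ubiquinone synthesis, 39 assembly factors outside the name rule, 18 genes of the tricarboxylic acid cycle, 19 regulators of mitochondrial biogenesis and 76 mitochondrial ribosomal proteins, 0 were called by edgeR in either direction, with or without the block. DESeq2 and limma-voom also called 0. At an unadjusted p under 0.05 there were 0 genes of these lists in edgeR without the block and in limma-voom, and 1 carrier in DESeq2. In edgeR with the block there were 1 carrier, 1 regulator and 3 ribosomal proteins. Values above 0 were held by 13, 22, 15, 11 and 63 of them, in that order. Their medians were 0.043, 0.050, 0.053, 0.029 and 0.081. The smallest p-values with the block belonged to Coq10a (-0.30 ± 0.12, SE, adjusted p = 0.358) and Coq2 (0.24 ± 0.12, adjusted p = 0.479) among carriers. Coq10a, a ubiquinone-binding protein, stood at 17.5, 15.5 and 16.0 CPM in vehicle and at 13.1, 13.0 and 13.6 CPM in DEK libraries, with no overlap. In the other direction, Cyc1, Coq2 and Pdss1 were higher in all DEK libraries than in all vehicle libraries, so 4 of 20 carriers did not overlap, beside 7.19% of all genes. Cyc1 and Pdss1 are named for that count. The smallest p-values among assembly factors were those of Cmc1 (-0.23 ± 0.12) and Uqcc2 (0.22 ± 0.12), for the cycle Pcx (0.33 ± 0.18) and Idh2 (0.16 ± 0.094), for regulators Pprc1 (0.29 ± 0.13) and Esrra (0.21 ± 0.13), and for the ribosome Mrpl52 (0.27 ± 0.094) and Mrpl12 (0.31 ± 0.12), with SE and the block for each.

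Markers of other cell types included genes that passed the test within pairs. With the block, edgeR called 2 of 5 eosinophil markers (all 5 below 0, median -0.52, summed share 0.398% to 1.34% in vehicle and 0.267% to 1.07% in DEK) and 5 of 10 monocyte and macrophage markers (4 lower, 1 higher, share 0.162% to 0.257% and 0.167% to 0.295%). It called 1 of 10 neutrophil markers, higher. Of the mast cell and basophil list all 5 tested were below 0 (share 0.108% to 0.330% and 0.0997% to 0.243%) and 0 were called. The 10 progenitor markers were all below 0 without the block (median -0.13), and 7 of 8 proliferation markers were above 0 (median 0.14). No marker of progenitors, erythroid cells, megakaryocytes, B cells, T and NK cells, proliferation, skeletal muscle or plasmacytoid dendritic cells was called by edgeR with the block, and none of any list without it. For progenitors this was at the threshold: the smallest adjusted p of that list with the block was 0.0500068 (edgeR). The part of cell makeup in the members' values was not tested.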

How the data were processed

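RNA of 6 libraries (3 vehicle, 3 DEK) was measured by poly-A selected, stranded RNA-seq, per the labels' protocols. The deposited values are raw read counts per gene, made by the authors with featureCounts 1.6.1 on mm10 exons without strand, multi-mapping or overlap options, per the file headers. STAR, Trim Galore, edgeR and HTSeq stand in the submitters' processing notes, and for the counter the header was followed.

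The members and lists were chosen with earlier results of these data known. Of 18049 genes with a read, 13803 passed filterByExpr and were tested with edgeR 4.0.16 (R 4.3.3; TMM, robust quasi-likelihood, no block, two-sided, Benjamini-Hochberg, threshold 0.05). SEs come from the F statistic. The fit was tested on simulated data. DESeq2 1.42.0, limma-voom (limma 3.58.1), other scalings and filters, and leaving out libraries were alternatives. Levels are CPM, or CPM per kb of exon.

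The replicate number as a block was a further alternative. Deviations from group means correlated across genes at 0.55, 0.56 and 0.80 for equal numbers 1, 2 and 3, so numbers were taken as pairs. The labels do not state a pairing, and unequal numbers 1 and 2 correlated too (0.52 and 0.41). Gene-level variation between replicates (edgeR's common coefficient) was 33.1%, and 13.1% once the block was added.

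Named are members called in either fit, the 2 highest and 2 lowest of each complex, the most abundant per length, isoform pairs, those next to the count filter, and the 2 smallest p-values of each further list. Others are marked as chosen after seeing values. Promoters are from RefSeq GRCm38.p6, transcripts from GENCODE M21, and proteins were not used here. 1 member is counted but not reported by name here.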

Additional observations from a re-analysis of the deposited data

How the results depend on the processing

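With 3 libraries a group, small shifts of the members are within error. 0 of 90 members were called with edgeR under the RLE scaling, library totals only, no filter on low counts, Rn45s left out, structural subunits only (of 76) and each left-out library. DESeq2 gave an adjusted p for 89 members and called 0 of them, and limma-voom called 0 of 90. With the replicate block 1 was called (Ndufaf7). With the block and without the pair numbered 3 there were 2 (Ndufaf7 higher, Cox6a2 lower), so leaving out libraries gave 0 to 2. The share of all genes called in that last fit is not given here, so the 2 cannot be set against it. The pairing changed no other member's call.

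The members' median log2 fold change ran from -0.0033 to 0.098 over left-out libraries and was 0.037 with library totals only. Complex II had a median of 0.020, which became 0.10 over structural subunits only and ran from -0.013 to 0.068 over left-out libraries. That of complex III ran from -0.029 to 0.13. The cause was not tested. Ndufa4, at 0.00013 in the fit without a block, was -0.0014 with the replicate block, -0.0023 with limma-voom and -0.011 with library totals only. Over left-out libraries the log2 fold change changed sign for 15 named members: Atp5k (-0.26 to 0.11), Atp5s (-0.34 to 0.079), Cox4i1 (-0.054 to 0.15), Cox6b1 (-0.0095 to 0.13), Cox6b2 (-0.43 to 0.11), Cox7a1 (-0.14 to 0.061), Cox7b (-0.074 to 0.12), Ndufa3 (-0.21 to 0.032), Ndufa4 (-0.079 to 0.088), Ndufa6 (-0.27 to 0.031), Ndufv3 (-0.22 to 0.051), Sdhaf1 (-0.21 to 0.060), Sdhaf3 (-0.40 to 0.031), Uqcrb (-0.13 to 0.0022) and Uqcrh (-0.18 to 0.019). Within those ranges, both libraries of a number left out without a block gave -0.0065 (Cox6b1) and -0.075 (Ndufa4) without replicate 1, -0.41 and 0.093 (Cox6b2) without replicates 1 and 3, and 0.025 (Ndufa3) and 0.087 (Ndufa4) without replicate 3. With the replicate block the values were 0.075 (Atp5s) and 0.026 (Sdhaf1) without replicate 3, 0.022 (Cox7a1) without replicate 1, and -0.0035 (Ndufa4), 0.0011 (Ndufa6) and 0.018 (Uqcrh) without replicate 2.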

Other observations

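Around Ndufaf7 the genes on chromosome 17 differed in how they stood between the groups, an interval chosen after the values were seen. Cebpz (78919003 to 78937070, minus strand) stood at 65.3, 63.0 and 75.6 CPM in vehicle and at 73.5, 72.1 and 69.4 CPM in DEK libraries. Beyond Prkd3 (78949405 to 79020816, minus strand) lies Qpct (79051906 to 79090243, plus strand), which encodes glutaminyl cyclase, 31090 bases away. Qpct stood at 10.4, 11.3 and 5.66 CPM in vehicle and at 22.8, 27.9 and 9.61 CPM in DEK libraries, higher in all 3 pairs. Its log2 fold change with the block was 1.08 ± 0.14 (SE, adjusted p = 0.00368, edgeR), and 1.14 ± 0.45 without it (SE, adjusted p = 1.00). BC002163, the entry that overlaps Ndufs5, had 26 to 63 counts per library.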
